A study of Homo sapiens with 3 samples.

Results

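The gene set described here holds the proteins that make up the pre-mRNA splicing machinery and its main regulators. Members were the probe sets whose single annotated symbol begins with HNRNP or SNRP, is SRSF or LSM with a number, SF3A or SF3B with a digit, or PRPF with a number, or is ESRP1, ESRP2, U2AF1, U2AF2, RBFOX2 or PTBP1. This rule took 263 of 49388 probe sets and 81 of 18131 genes, and no measured value entered it. Of these, 76 genes and 236 probe sets were measured, meaning that at least 1 of the 3 arrays lay above a floor set at the median of all values, an intensity of 26.0. The other 5 genes (SRSF12, HNRNPA1L2, HNRNPCL1, HNRNPCL2 and SNRPD2P2) were below the floor on every array, and U2AF1 had no single-symbol probe set. Those 5 genes had a highest intensity of 8.34.

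Splicing removes introns through 5 small nuclear ribonucleoproteins (snRNPs), each an RNA held in a ring of Sm or LSM proteins with specific proteins attached. U1 marks the 5′ splice site, U2 with the SF3A and SF3B complexes settles on the branch point, and the U4/U6.U5 tri-snRNP, with its PRPF proteins, brings the catalytic centre. SR proteins generally favour the use of the exons they bind, hnRNP proteins often oppose it, and tissue regulators such as the ESRP and RBFOX proteins shift the choice of exon. In prostate cancer the choice of exon bears on the androgen receptor, whose truncated isoforms can arise by alternative splicing.

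RNA came from LNCaP, an established human prostate cancer line that depends on the androgen receptor, hybridised to Affymetrix arrays. The groups were HOXD-AS1 siRNA 1, HOXD-AS1 siRNA 2 and a control siRNA, with 1 array each, all at 75 nM with a lipid carrier and harvested at 48 h, in medium free of phenol red with serum. HOXD-AS1 is a long non-coding RNA of the HOXD cluster, and its own level was not analysed here. The titles name HOXD-AS1 as the target, but the label for the target position (588 for siRNA 1, 1290 for siRNA 2) names WDR5. An inhibition rate is labelled as 0.23 for siRNA 1, 0.25 for siRNA 2 and 1 for the control siRNA. Whether this rate is the level left or the reduction is not said. The labels call the cell line LNCaP on every array, but name the source LNCaP-Bic for siRNA 1, LNCaP-AI for siRNA 2 and LNCaP for the control, so a difference between cells and a difference between siRNAs cannot be told apart. No difference below has a replicate check or a test, and both siRNA differences use the same control array. The strands below are shown because they are the agents given to the cells, with the 3′ overhang in capitals.
HOXD-AS1 siRNA 1: gaaagaaggaccaaaguaaUU
HOXD-AS1 siRNA 2: gcccuuucugaccugcuuaUU
Control siRNA: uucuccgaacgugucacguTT

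All 8 LNCaP markers used here, of 11 listed, were measured. Their summed intensity was 15934 with siRNA 1, 13325 with siRNA 2 and 14549 with the control siRNA, and KLK3, which encodes prostate-specific antigen, read 2329 with siRNA 1, 1931 with siRNA 2 and 2602 with the control siRNA. Of 8 markers of prostate lines without the androgen receptor, only VIM was measured, at 593 with siRNA 1, 735 with siRNA 2 and 660.1 with the control siRNA, while CAV1, CD44, AXL, ANXA1 and KRT5 were below the floor. Of 10 fibroblast and leukocyte markers, 3 were measured, COL1A1, COL3A1 and CD68, and none passed an intensity of 88.7. The summed level of this list was 163 with siRNA 1, 214 with siRNA 2 and 156 with the control siRNA, and PTPRC, LUM and DCN were below the floor. COL3A1 alone read 28.4, 50.4 and 17.9 in the same order. The part of these markers in the results below was not tested.

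Each gene is given by its brightest single-symbol probe set, meaning the one with the highest mean log2 intensity over the 3 arrays. Differences are log2 intensity with the siRNA minus log2 intensity with the control siRNA, and intensities are compared between arrays and not between genes.

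With siRNA 1, 7 of the 76 measured members were 1.5-fold or more below the control, where 6.16% of all measured genes were, and 1 was 1.5-fold or more above it, where 6.9% were. With siRNA 2, 4 members were 1.5-fold or more lower, against 4.67% of all genes, and 0 were higher, against 4.75%. The shares of members on the low side are near these backgrounds. No member was 2-fold from the control on either siRNA array, where 1.36% of all genes were higher and 1.76% lower with siRNA 1, and 0.789% higher and 0.603% lower with siRNA 2. More members lay slightly under the control. With siRNA 1 this was 47 of 76, against 48.0% of all genes, with a median difference of -0.11 for members and 0.003 for all genes. With siRNA 2 it was 59 of 76, against 46.9%, with medians of -0.15 and 0.014. Over the 236 probe sets, 21 were 1.5-fold or more lower and 12 higher with siRNA 1, against 5.65% and 6.57% of all measured probe sets, and 28 were lower and 0 higher with siRNA 2, against 5.22% and 3.98%. Of those 28, 2 were 2-fold or more lower, against 0.644%. Under the control lay 159 of 236 with siRNA 1, against 48.3% of all probe sets, and 203 of 236 with siRNA 2, against 50.0%. Probe sets of a gene are not separate observations. Read only from the 22 genes with a plain probe set, one not marked by the maker as able to match several transcripts, the siRNA 1 median was 0.046. In bulk RNA, fewer cells of a type and less of a transcript per cell cannot be told apart.

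**Figure D1:**
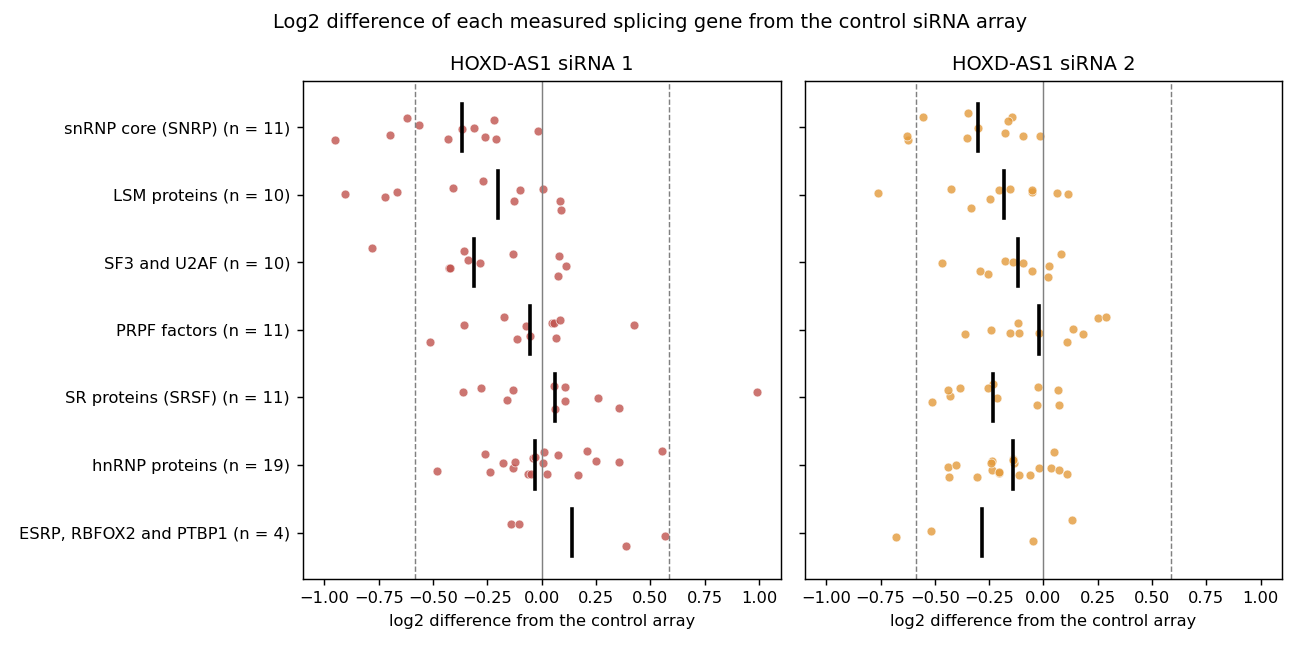
Log2 difference from the control of each measured member gene (1 point per gene, brightest probe set) by class, with siRNA 1 and siRNA 2 (black bars, class medians; dashed lines, 1.5-fold). The 11 snRNP core genes all lie below 0 with each siRNA, while the SR genes have a median of 0.063 with siRNA 1 and -0.23 with siRNA 2.

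The snRNP core genes, which encode the Sm ring and the proteins specific to U1 and U2, had the lowest class medians when each gene was read by its brightest probe set. All 11 measured members were under the control with siRNA 1, median -0.37, and all 11 with siRNA 2, median -0.30. Of these, 3 were 1.5-fold or more lower with siRNA 1 and 2 with siRNA 2. Of all measured genes, 48.0% were under the control with siRNA 1 and 46.9% with siRNA 2. By 1.5-fold or more, these shares were 6.16% and 4.67%. SNRPN is not counted here, since its probe sets also carry the symbol SNURF. They were level with siRNA 1 (0.085, 0.020 and -0.022) and under the control with siRNA 2 (-0.099, -0.50 and -0.64). Counting probe sets in place of genes, 32 of 35 lay under the control with siRNA 1, against 48.3% of all measured probe sets, and 31 of 35 with siRNA 2, against 50.0%. By probe set the snRNP core median was -0.43 with siRNA 1 and -0.34 with siRNA 2. With siRNA 2 the medians of the SR probe sets (-0.36) and of ESRP1, ESRP2, RBFOX2 and PTBP1 together (-0.38) lay slightly lower. RBFOX2 supplied 9 of the 16 probe sets of this last group, at -0.69 to -0.16, and ESRP1 was at -0.68 and -0.18. PTBP1 lay nearer the control, at -0.16 to -0.041, and ESRP2 above it, at 0.13.

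SNRPA1, a protein specific to the U2 snRNP, had the lowest difference of the class with siRNA 1. Its intensity was 699 with siRNA 1, 877 with siRNA 2 and 1351 with the control siRNA. Both siRNA arrays were thus under the control, 1.93-fold with siRNA 1 (-0.95) and 1.54-fold with siRNA 2 (-0.62). Its other probe set was nearer to the control, at -0.52 with siRNA 1 and -0.24 with siRNA 2. SNRPB encodes SmB and SmB′ of the Sm ring, and read 3182 with siRNA 1, 3163 with siRNA 2 and 4884 with the control siRNA. Here the siRNA arrays were almost equal and both low, at -0.62 with siRNA 1 and -0.63 with siRNA 2, and all 7 of its probe sets shared this, over -0.84 to -0.59 with siRNA 1 and -0.71 to -0.54 with siRNA 2. SNRPA, which binds U1 RNA directly, repeated the pattern just short of 1.5-fold, at 289.9 with siRNA 1, 292 with siRNA 2 and 428 with the control siRNA and differences of -0.56 with siRNA 1 and -0.55 with siRNA 2.

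SNRPC, the U1 protein that steadies U1 on the 5′ splice site, was low on the siRNA 1 array only. It had an intensity of 1763 with siRNA 1, 2685 with siRNA 2 and 2862 with the control siRNA, which is 1.62-fold below the control with siRNA 1, against a difference of -0.092 with siRNA 2. Its other 3 probe sets were all under the control with siRNA 1 (-0.66 to -0.36) and on either side of it with siRNA 2 (-0.17 to 0.21). The Sm ring genes SNRPD1, SNRPD2, SNRPD3, SNRPE, SNRPF and SNRPG lay between -0.43 and -0.21 with siRNA 1 and between -0.35 and -0.14 with siRNA 2. The other 2 probe sets of SNRPD1 were level with siRNA 1 (-0.013 to 0.035) and lower with siRNA 2 (-0.45 to -0.40). The dimmer probe set of SNRPE was above the control, at 0.85 with siRNA 1 and 0.11 with siRNA 2. By brightest probe set the groups did not reach 1.5-fold in any of these genes. SNRPG, for example, read 4139 with siRNA 1, 4382 with siRNA 2 and 5585 with the control siRNA. SNRPB2, which partners the SNRPA1 protein on U2 RNA, had nearly the same level on all arrays, 1032 with siRNA 1, 1033 with siRNA 2 and 1046 with the control siRNA.

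The stretch before the transcription start was compared for these genes, because they lay on the same side of the control. RefSeq windows (GRCh38.p14), read as the 250 bases before each start, were held for 10 of the 11 snRNP core genes (15 windows) and 65 of the 76 members (88 windows). The ETS core CCGGAAG, searched on both strands, was in 9 of 15 snRNP core windows (60.0%), in 24 of 88 member windows (27.3%), in 14.1% of the windows of all measured genes and in 8.52% of 35116 RefSeq windows. SF3 and U2AF genes had it in 7 of 10 windows (70.0%) and LSM genes in 10.0%. Windows of a gene are not separate observations. Counted by gene, the ETS core was in 7 of 10 snRNP core genes (70.0%), 22 of 65 members (33.8%) and 19.1% of all measured genes. It was in 77.8% of SF3 and U2AF genes and 12.5% of LSM genes. The CCAAT box was in 26.7% of snRNP core windows and 33.5% of those of all measured genes, and the GC box GGGCGG in 26.7% and 63.4%. Matches to TTTCCCGC or TTTGGCGC (E2F), CACGTG (E-box) and the palindromic NRF1 motif numbered 0 in the snRNP core windows, against 2.95%, 8.53% and 1.72% of the windows of all measured genes. All motifs were searched on both strands, and none contains another. A match is a description of letters and not of binding. The windows below show the ETS core in capitals for 3 genes low with siRNA 1 and for SNRPB2, which was level with the control. SNRPC and SNRPB2 hold it at 2 places each, in SNRPC as matches on opposite strands that overlap in 1 capital run.
SNRPA1, chr15:101295249-101295498, minus strand: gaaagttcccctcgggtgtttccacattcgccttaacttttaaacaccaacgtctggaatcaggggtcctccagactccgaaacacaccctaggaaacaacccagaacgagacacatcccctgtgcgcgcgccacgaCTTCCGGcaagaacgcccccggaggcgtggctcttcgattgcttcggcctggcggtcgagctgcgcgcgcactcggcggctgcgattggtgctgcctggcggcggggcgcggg
SNRPC, chr6:34757255-34757504, plus strand: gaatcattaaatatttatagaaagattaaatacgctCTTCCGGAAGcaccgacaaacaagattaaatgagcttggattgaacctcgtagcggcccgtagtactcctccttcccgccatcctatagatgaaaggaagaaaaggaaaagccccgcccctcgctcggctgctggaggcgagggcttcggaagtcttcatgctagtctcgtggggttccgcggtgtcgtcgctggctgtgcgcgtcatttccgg
SNRPB, chr20:2470790-2471039, minus strand: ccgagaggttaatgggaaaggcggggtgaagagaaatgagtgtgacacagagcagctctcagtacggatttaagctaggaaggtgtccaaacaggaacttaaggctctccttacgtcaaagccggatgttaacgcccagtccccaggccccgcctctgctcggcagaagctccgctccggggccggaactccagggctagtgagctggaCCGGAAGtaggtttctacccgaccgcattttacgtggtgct
SNRPB2, chr20:16729776-16730025, plus strand: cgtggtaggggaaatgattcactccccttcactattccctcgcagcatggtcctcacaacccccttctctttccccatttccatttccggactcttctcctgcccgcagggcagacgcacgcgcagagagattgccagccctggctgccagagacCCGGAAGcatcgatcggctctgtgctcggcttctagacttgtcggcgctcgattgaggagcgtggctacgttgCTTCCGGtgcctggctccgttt
The letters thus do not separate SNRPB2 from the other genes shown.

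**Figure D2:**
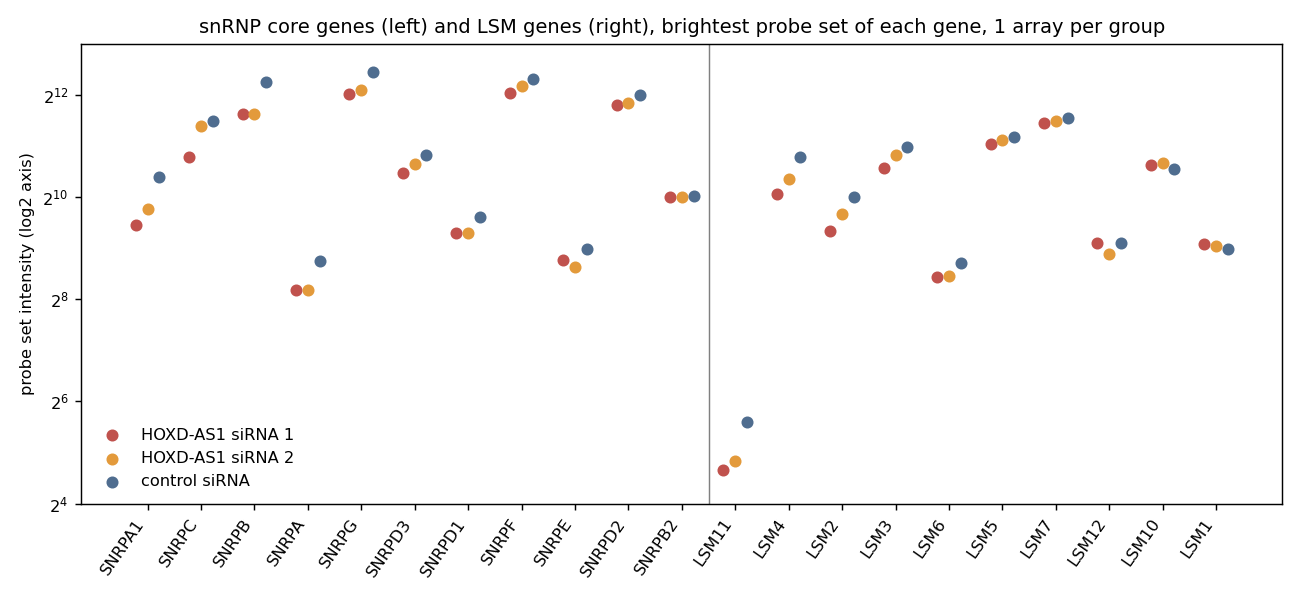
Intensity (log2 axis) of the brightest probe set of each measured snRNP core and LSM gene, 1 point per array, ordered within each class by the siRNA 1 difference. SNRPA1, SNRPB and SNRPA have both siRNA points under the control point, SNRPC has only the siRNA 1 point far below it, and SNRPB2 has all points together.

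LSM proteins are relatives of the Sm proteins: LSM2 to LSM8 ring U6 RNA, LSM1 replaces LSM8 in the cytoplasmic ring that promotes decay, and LSM10 and LSM11 serve the U7 snRNP that trims histone mRNA. Of the 10 measured LSM genes, 7 lay under the control with siRNA 1 (median -0.20, 3 by 1.5-fold or more) and 8 with siRNA 2 (median -0.18, 1 by 1.5-fold or more). The shares of all measured genes were 48.0% (6.16% by 1.5-fold or more) with siRNA 1 and 46.9% (4.67%) with siRNA 2. LSM4 read 1065 with siRNA 1, 1306 with siRNA 2 and 1756 with the control siRNA. It was lower on both siRNA arrays, at -0.72 with siRNA 1 and -0.43 with siRNA 2. LSM2 likewise had an intensity of 645 with siRNA 1, 813 with siRNA 2 and 1024 with the control siRNA, with differences of -0.67 with siRNA 1 and -0.33 with siRNA 2. LSM3, LSM6, LSM5 and LSM7, further subunits of the U6 ring, lay between -0.41 and -0.098 with siRNA 1 and between -0.25 and -0.052 with siRNA 2.

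The U7 pair were not alike. LSM11 was near the floor, at 25.3 with siRNA 1, 28.6 with siRNA 2 and 48.6 with the control siRNA. With siRNA 1 it was under the floor, so it was at least 1.87-fold below the control, and with siRNA 2 it was 1.70-fold below. LSM10 was near the control, at 1592 with siRNA 1, 1621 with siRNA 2 and 1502 with the control siRNA, with its other probe set at -0.20 with siRNA 1 and -0.041 with siRNA 2. LSM1, with 1 probe set, was at 0.089 with siRNA 1 and 0.063 with siRNA 2. LSM12 was at 0.006 with siRNA 1 and -0.21 with siRNA 2 by its brightest probe set, while the other 5 were lower, over -0.51 to -0.36 with siRNA 1 and -0.50 to -0.26 with siRNA 2.

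SF3 and U2AF proteins recognise the branch point and the pyrimidine tract at the 3′ splice site. The median of the 10 measured genes was -0.31 with siRNA 1 and -0.12 with siRNA 2, with 7 of 10 genes under the control in each. Of all measured genes, 48.0% were under it with siRNA 1 and 46.9% with siRNA 2. Past 1.5-fold lower lay 6.16% and 4.67%. By brightest probe set, SF3A3, a subunit of the SF3A complex, was the gene with a difference of 1.5-fold or more. Its intensity was 307 with siRNA 1, 507 with siRNA 2 and 526 with the control siRNA. The siRNA 1 array stood alone, at -0.78 (1.72-fold lower), while siRNA 2 was at -0.055. The dimmer probe set of SF3A3 was -0.77 with siRNA 1 and -0.32 with siRNA 2. The partner subunits SF3A2 and SF3A1 were at -0.43 and -0.29 with siRNA 1 and at -0.095 and 0.081 with siRNA 2.

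Within SF3B, SF3B3 was lower on both siRNA arrays, at 335 with siRNA 1, 309.7 with siRNA 2 and 428 with the control siRNA. SF3B6, the p14 protein that touches the branch point, had an intensity of 2144 with siRNA 1, 2401 with siRNA 2 and 2711 with the control siRNA, and SF3B5, its small partner in the complex, had an intensity of 1990.0 with siRNA 1, 2231 with siRNA 2 and 2664 with the control siRNA. These probe sets were all under the control, but the other probe set of SF3B5 was level, at -0.000 with siRNA 1 and 0.059 with siRNA 2. SF3B1, the largest subunit and a frequent target of mutation in blood cancers, was near the control by its brightest probe set. That probe set was at 0.078 with siRNA 1 and -0.14 with siRNA 2. The dimmer probe sets of SF3B1 were lower, at -0.15 and -0.34 with siRNA 1 and -0.59 and -0.93 with siRNA 2. SF3B2 was near the control, at 0.075 with siRNA 1 and 0.020 with siRNA 2. U2AF2, which binds the pyrimidine tract, had an intensity of 564 with siRNA 1, 426 with siRNA 2 and 522 with the control siRNA, with its other probe set at -0.10 with siRNA 1 and -0.51 with siRNA 2.

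The PRPF factors, which act in the tri-snRNP and in activation of the spliceosome, were centred on the control by brightest probe set. The median of the 11 measured genes was -0.052 with siRNA 1 and -0.022 with siRNA 2, and 0 were 1.5-fold or more away in either direction. Of all measured genes, 6.16% were that far lower and 6.9% higher with siRNA 1, and 4.67% and 4.75% with siRNA 2. By probe set, 12 of 20 lay under the control with siRNA 1 (median -0.056), against 48.3% of all probe sets. With siRNA 2 it was 15 of 20 (median -0.12), against 50.0%. PRPF8, the scaffold of the catalytic centre, had an intensity of 1132 with siRNA 1, 1305 with siRNA 2 and 1450.3 with the control siRNA, lowest with siRNA 1. PRPF3, of the U4/U6 snRNP, was furthest under the control with siRNA 1 and had an intensity of 106 with siRNA 1, 140.1 with siRNA 2 and 152 with the control siRNA, a difference of -0.52 with siRNA 1 and -0.12 with siRNA 2. PRPF39, a U1-associated factor, was furthest above the control on both siRNA arrays but close to the floor, at 37.4 with siRNA 1, 34 with siRNA 2 and 27.8 with the control siRNA. PRPF31, whose mutations cause retinal degeneration, was at 0.048 with siRNA 1 and 0.18 with siRNA 2 by its brightest probe set and below 0 by the other 2 (-0.26 to -0.026 with siRNA 1, -0.13 to -0.078 with siRNA 2), and PRPF6 and PRPF18 were between 0.067 and 0.13. PRPF40B, related to a yeast U1 protein, was at -0.11 with siRNA 1 and 0.25 with siRNA 2. The brightest probe set of PRPF38A was level, at 245 with siRNA 1, 254 with siRNA 2 and 257 with the control siRNA, but its other one read 266 with siRNA 1, 176 with siRNA 2 and 251 with the control siRNA, so only the siRNA 2 array was low there (-0.51).

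The SR genes lay mostly under the control with siRNA 2, and had no settled side with siRNA 1. Of the 11 measured, 7 were above the control with siRNA 1, against 50.3% of all genes (median 0.063). With siRNA 2, 9 were under it, against 46.9% of all genes (median -0.23). By probe set, 27 of 47 were under the control with siRNA 1, against 48.3% of all probe sets (median -0.093), and 41 of 47 with siRNA 2, against 50.0% (median -0.36), so the siRNA 1 side turns with the choice of probe set. SRSF8, a close relative of SRSF2, was the single member 1.5-fold or more above the control with siRNA 1. Its 1 measured probe set read 663 with siRNA 1, 351 with siRNA 2 and 333 with the control siRNA. This is 1.99-fold above the control with siRNA 1, and a difference of 0.072 with siRNA 2. Related sequences may share its signal, which was not tested.

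SRSF6, a regulator of exon inclusion, had an intensity of 952 with siRNA 1, 522 with siRNA 2 and 745 with the control siRNA. It was above the control with siRNA 1 (0.35) and under it with siRNA 2 (-0.51), but its other probe set was level, at 0.11 with siRNA 1 and 0.11 with siRNA 2. SRSF11 repeated the arrangement on every probe set. Its brightest read 2096 with siRNA 1, 1511 with siRNA 2 and 1750.0 with the control siRNA, and all 6 lay above the control with siRNA 1 (0.20 to 0.80) and under it with siRNA 2 (-0.57 to -0.13). SRSF2 and SRSF7 were under the control with both siRNAs. SRSF2 had an intensity of 463 with siRNA 1, 443 with siRNA 2 and 596 with the control siRNA, and SRSF7 had an intensity of 1247 with siRNA 1, 1116 with siRNA 2 and 1512 with the control siRNA. SRSF1, the founding SR protein, was at 0.063 with siRNA 1 and -0.26 with siRNA 2. SRSF9 had an intensity of 3823 with siRNA 1, 3473 with siRNA 2 and 3548 with the control siRNA, and SRSF4 was level at 0.057 with siRNA 1 and 0.068 with siRNA 2.

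The hnRNP genes, which coat nascent transcripts, differed little from the control when each was read by its brightest probe set. The median of the 19 measured was -0.030 with siRNA 1 and -0.14 with siRNA 2, and 0 were 1.5-fold or more from the control. Of all measured genes, 6.16% were that far lower and 6.9% higher with siRNA 1, and 4.67% and 4.75% with siRNA 2. HNRNPA1, an exon-silencing protein, had an intensity of 7124 with siRNA 1, 6677 with siRNA 2 and 7363 with the control siRNA. Its other 4 probe sets ran over -0.16 to 0.27 with siRNA 1 and -0.82 to 0.002 with siRNA 2. Its many processed pseudogenes make its probe sets uncertain. HNRNPA3, its relative, was furthest above the control with siRNA 1, at 1179.7 with siRNA 1, 699 with siRNA 2 and 805 with the control siRNA, differences of 0.55 with siRNA 1 and -0.20 with siRNA 2. HNRNPH1 and HNRNPH3, which bind G-rich RNA, were above the control with siRNA 1 (0.36 and 0.25) and under it with siRNA 2 (-0.11 and -0.20) by their brightest probe sets. The other 2 probe sets of HNRNPH3 were under the control with both siRNAs, over -0.13 to -0.12 with siRNA 1 and -0.47 to -0.46 with siRNA 2.

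HNRNPA0, which binds AU-rich RNA, was furthest under the control with siRNA 1, at 812 with siRNA 1, 1032 with siRNA 2 and 1134 with the control siRNA, although its other probe set was at 0.11 with siRNA 1 and 0.14 with siRNA 2. HNRNPAB and HNRNPDL were furthest under it with siRNA 2. HNRNPAB had an intensity of 1310.4 with siRNA 1, 996 with siRNA 2 and 1348 with the control siRNA, so the siRNA 2 array alone was low. HNRNPD, the AU-rich element binding protein AUF1, had an intensity of 1893 with siRNA 1, 1926 with siRNA 2 and 2267 with the control siRNA, low on both siRNA arrays. The brightest probe set of HNRNPM was slightly above the control on both, at 4524 with siRNA 1, 4344 with siRNA 2 and 4035 with the control siRNA, but its other 2 were below, over -0.40 to -0.28 with siRNA 1 and -0.42 to -0.32 with siRNA 2. HNRNPK, which binds C-rich RNA, had an intensity of 1335 with siRNA 1, 1305 with siRNA 2 and 1323 with the control siRNA by its brightest probe set, but the median of its 6 was -0.32 with siRNA 1 and -0.29 with siRNA 2. HNRNPUL2 was level, at 0.075 with siRNA 1 and 0.069 with siRNA 2, and HNRNPR was at 0.21 with siRNA 1 and 0.049 with siRNA 2, with its other 2 probe sets over 0.063 to 0.77 with siRNA 1 and -0.17 to -0.007 with siRNA 2. By probe set, 47 of 74 hnRNP probe sets were under the control with siRNA 1, against 48.3% of all probe sets, and 63 of 74 with siRNA 2, against 50.0%. By 1.5-fold or more, 2 were lower and 3 higher with siRNA 1, against 5.65% and 6.57% of all probe sets. With siRNA 2, 11 were lower and 0 higher, against 5.22% and 3.98%. Of those 11, 2 were 2-fold or more lower, against 0.644%.

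Of the tissue regulators of splicing, RBFOX2 lay above the control on the siRNA 1 array and under it on the siRNA 2 array. RBFOX2, which binds UGCAUG and directs exons of epithelial and mesenchymal programmes, had an intensity of 471 with siRNA 1, 252 with siRNA 2 and 360.5 with the control siRNA. Its differences were 0.39 with siRNA 1 and -0.52 with siRNA 2. All 9 of its measured probe sets shared this arrangement, over 0.39 to 0.96 with siRNA 1 and -0.69 to -0.16 with siRNA 2. Of these, 6 were 1.5-fold or more above the control with siRNA 1 and 2 were 1.5-fold or more below it with siRNA 2. The shares over all measured probe sets were 6.57% and 5.22%.

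ESRP1 and ESRP2, which enforce epithelial exon choice, were not alike. ESRP1 had an intensity of 305 with siRNA 1, 210.3 with siRNA 2 and 337 with the control siRNA, so that the siRNA 2 array was 1.60-fold under the control, while its dimmer probe set was at 0.017 with siRNA 1 and -0.18 with siRNA 2. ESRP2, with 1 measured probe set, had an intensity of 738 with siRNA 1, 546 with siRNA 2 and 498 with the control siRNA and was above the control with siRNA 1 (0.57). PTBP1, which represses exons through pyrimidine tracts, was nearly level, at 1487 with siRNA 1, 1546 with siRNA 2 and 1599 with the control siRNA.

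The siRNA arrays were also set against each other, a difference that does not use the control. Of the 76 members, 4 were 1.5-fold or more higher with siRNA 1 than with siRNA 2, where 6.52% of all genes were, and 2 were lower, where 4.87% were. None reached 2-fold, where 1.56% and 0.656% did. The 4 higher genes were SRSF8 (0.92), RBFOX2 (0.91), SRSF6 (0.87) and HNRNPA3 (0.76). The 2 lower genes were SF3A3 (-0.72) and SNRPC (-0.61). By role and brightest probe set, most SR and hnRNP genes lay higher with siRNA 1 than with siRNA 2. Most genes of the snRNP core, LSM and PRPF classes lay lower. Of the SR genes 9 of 11 were higher (median 0.16) and of the hnRNP genes 16 of 19 (median 0.093), against 2 of 11 snRNP core genes (median -0.044), 2 of 10 LSM genes (-0.060), 4 of 10 SF3 and U2AF genes (-0.16), 3 of 11 PRPF genes (-0.052) and 45.7% of all genes (-0.020). Counted by probe set, the PRPF class had no side, with 10 of 20 higher (median 0.006), where 11660 of all 23896 probe sets were. The SR, hnRNP, snRNP core and LSM classes kept theirs. By probe set, 29 of 236 were 1.5-fold or more higher with siRNA 1, against 7.07% of all probe sets, and 2 were lower, against 4.02%. Of those 29, 9 came from RBFOX2 alone, so they are not separate genes, and RBFOX2 supplied 6 of the 9 that were 2-fold or more higher, where the share over all probe sets was 1.64%.

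**Figure D3:**
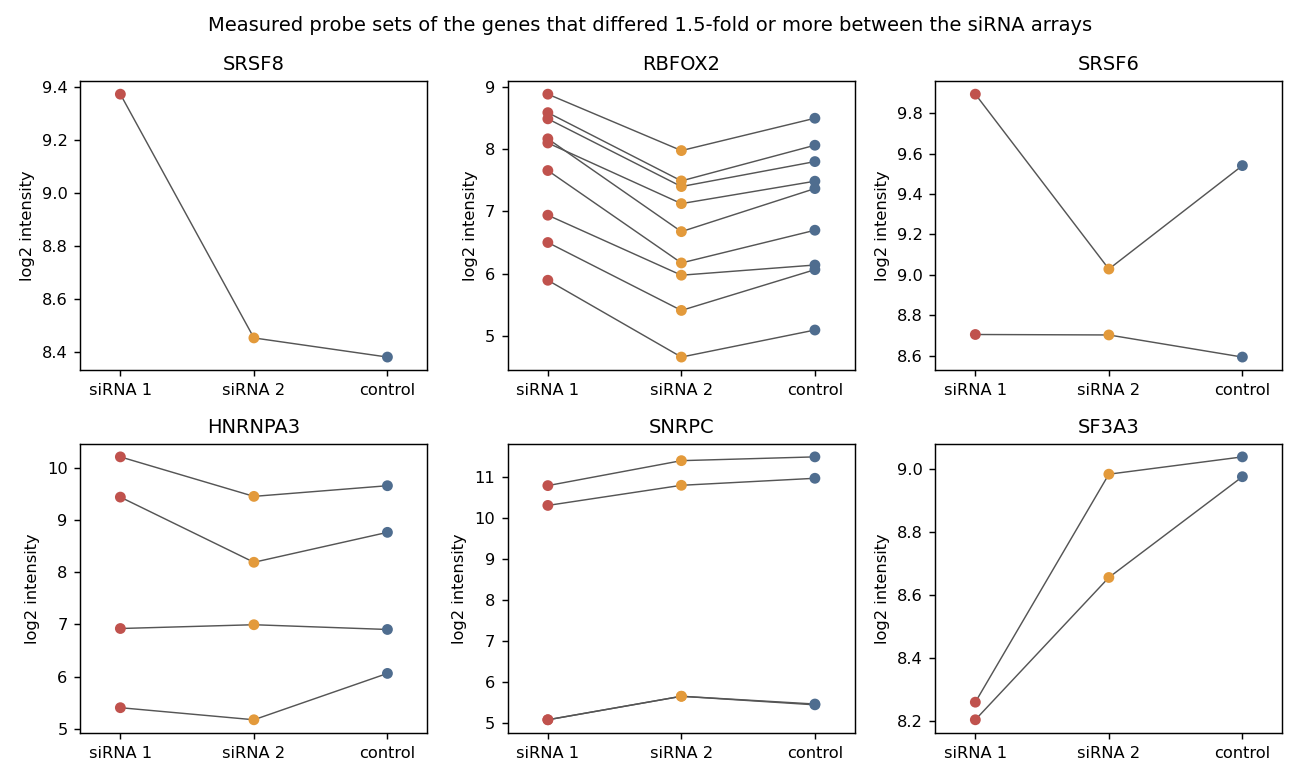
Log2 intensity of every measured probe set (1 line each) of the 6 member genes 1.5-fold or more apart between the siRNA arrays, for siRNA 1, siRNA 2 and the control siRNA. All 9 RBFOX2 lines dip at siRNA 2, whereas all SF3A3 and SNRPC lines are lowest at siRNA 1.

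Probe sets of a gene can report different transcript ends or isoforms, so the probe sets of each gene were compared for the 59 of 76 genes that had 2 or more measured. Their 401 pairs were 1.5-fold or more apart in 18 cases (4.49%) for the siRNA 1 difference, against 6.66% over all genes. For siRNA 2 the count was 24 (5.99%), against 5.0%, and between the siRNAs it was 33 (8.23%), against 7.08%. These shares are near the background. At 2-fold the counts were 5 (1.25%, against 0.985%), 3 (0.748%, against 0.604%) and 10 (2.49%, against 1.47%). No isoform can be named from these values, since the position of a probe set in its gene was not used here.

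The 12 genes with the largest spread show where members split. HNRNPU, a nuclear matrix and RNA-binding protein, had its brightest probe set at -0.062 with siRNA 1 and 0.034 with siRNA 2. A dimmer one read 357 with siRNA 1, 133 with siRNA 2 and 280.4 with the control siRNA, a difference of 0.35 with siRNA 1 and -1.08 with siRNA 2, so only the siRNA 2 array was low. HNRNPDL, which regulates its own transcript by alternative splicing, had 4 probe sets over -0.78 to 0.35 with siRNA 1 and -1.04 to -0.37 with siRNA 2. Its dimmest probe set read 95.7 with siRNA 1, 79.9 with siRNA 2 and 164 with the control siRNA. SF3B1 ran over -0.34 to 0.078 with siRNA 1 and -0.93 to -0.14 with siRNA 2, its dimmest probe set lowest. SRSF1 ran over -0.84 to -0.25 with siRNA 2, all 6 probe sets under the control, and over -0.30 to 0.063 with siRNA 1. HNRNPA3 ran over -0.66 to 0.67 with siRNA 1, with the brightest above the control and the dimmest below. SNRPE had a dim probe set at 0.85 with siRNA 1, on the other side from its brightest.

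Over the 59 genes, the brightest probe sets had a median of -0.13 with siRNA 1, against -0.16 for the 160 others, and -0.21 with siRNA 2, against -0.33. Over all genes the medians were 0.039 and 0.00 with siRNA 1 and 0.026 and -0.020 with siRNA 2. The array's own controls for RNA length differed between the groups. The ACTB 5′ probe set over the 3′ one gave a ratio of 0.0439 with siRNA 1, 0.0417 with siRNA 2 and 0.0565 with the control siRNA, and GAPDH gave 0.541, 0.493 and 0.557. The 5′ share was thus lower with each siRNA than with the control in both transcripts, and its part in these splits was not tested.

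**Figure D4:**
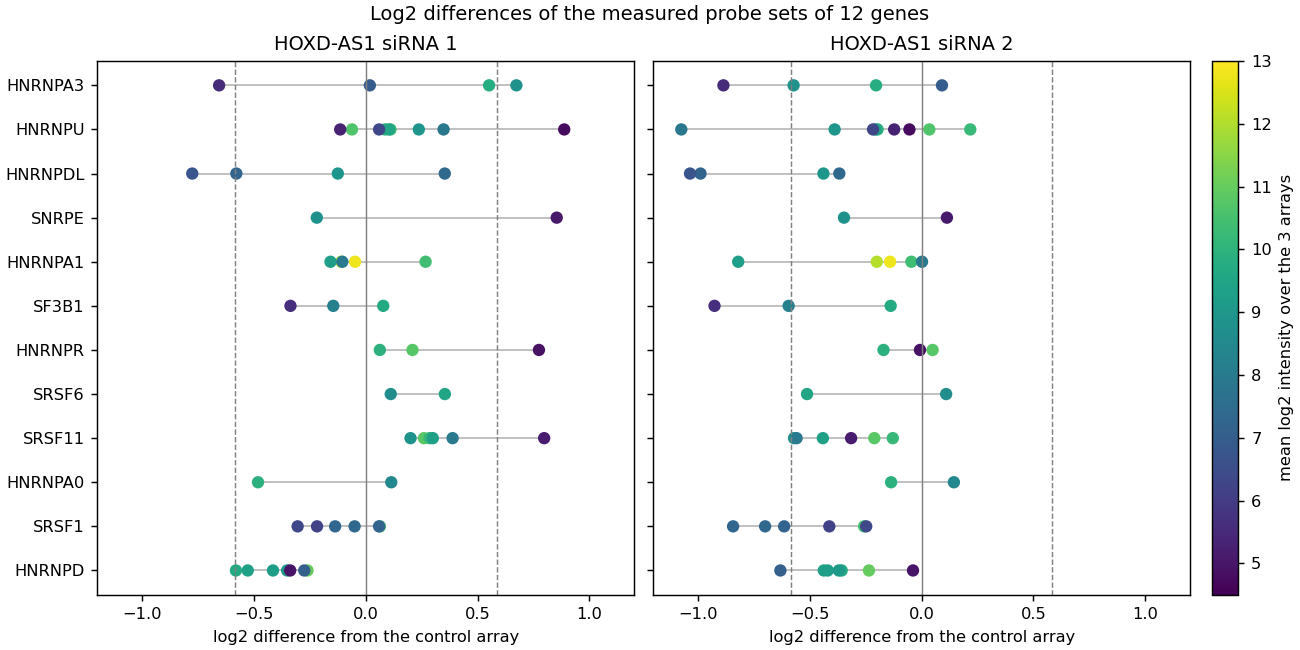
Log2 difference from the control of each measured probe set of the 12 member genes with the largest spread, coloured by mean log2 intensity, for siRNA 1 and siRNA 2 (dashed lines, 1.5-fold). Dimmer probe sets of HNRNPDL, SF3B1 and HNRNPU lie furthest left with siRNA 2, while the brightest lie nearer 0.

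Other splicing genes were taken from lists of known subunits and regulators. As above, 1.5-fold or more from the control lay 6.16% (lower) and 6.9% (higher) of all measured genes with siRNA 1, and 4.67% and 4.75% with siRNA 2. Of 47 measured of 51 other spliceosome subunits, 2 were 1.5-fold or more lower with each siRNA and 0 higher, with medians of -0.028 with siRNA 1 and -0.0052 with siRNA 2. PPIH, a cyclophilin of the U4/U6 snRNP, had an intensity of 303 with siRNA 1, 418 with siRNA 2 and 607 with the control siRNA, and DDX39A, an mRNA export helicase, had an intensity of 329.9 with siRNA 1, 361 with siRNA 2 and 628 with the control siRNA. Both genes were lower on both siRNA arrays, PPIH at -1.00 with siRNA 1 and -0.54 with siRNA 2 and DDX39A at -0.93 with siRNA 1 and -0.80 with siRNA 2. CDC5L, of the Prp19 complex, was low with siRNA 2 alone, at -0.031 with siRNA 1 and -0.79 with siRNA 2. DDX42 (0.41 with siRNA 1) and DDX23 (0.31 with siRNA 2) were the highest.

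The snRNP assembly list covers the SMN complex and the methylosome, which methylates Sm proteins before they are loaded on RNA. All 16 genes were measured, with medians of -0.13 with siRNA 1 and -0.26 with siRNA 2, and 11 were under the control with siRNA 1, against 48.0% of all genes, and 13 with siRNA 2, against 46.9%. PRMT5, the methyltransferase, had an intensity of 541 with siRNA 1, 399 with siRNA 2 and 739.9 with the control siRNA, and WDR77, its partner, had an intensity of 504 with siRNA 1, 682 with siRNA 2 and 822 with the control siRNA. Both siRNA arrays were under the control for each gene. CLNS1A, which presents Sm proteins to PRMT5 and was picked out after its values were seen, was low with siRNA 2 only. It had an intensity of 1343 with siRNA 1, 619.6 with siRNA 2 and 1148 with the control siRNA, a difference of 1.12 between the siRNAs. GEMIN4 of the SMN complex, also picked out after its values were seen, was with WDR77 the other gene 1.5-fold or more lower with siRNA 1, and had an intensity of 271 with siRNA 1, 326 with siRNA 2 and 412 with the control siRNA. PHAX, the snRNA export adaptor, was highest with each siRNA, at 0.35 with siRNA 1 and 0.099 with siRNA 2.

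Of 8 kinases that act on SR proteins and the import receptor TNPO3, 8 of the 9 were measured, 7 of them above the control with siRNA 1, against 50.3% of all genes, and 4 with siRNA 2, against 51.7%, and 0 were 1.5-fold away. SRPK1, which phosphorylates SR proteins in the cytoplasm, had an intensity of 675 with siRNA 1, 362 with siRNA 2 and 539.9 with the control siRNA, so the siRNA 1 array was high and the siRNA 2 array low. CLK4 was at 0.54 with siRNA 1 and 0.24 with siRNA 2, CLK3 at 0.47 with siRNA 1 and 0.49 with siRNA 2, and TNPO3, which imports SR proteins, at -0.18 with siRNA 1 and -0.069 with siRNA 2. Of 9 measured minor spliceosome genes, ZMAT5 was the 1 gene 1.5-fold or more lower with siRNA 1, at -0.66 with siRNA 1 and -0.032 with siRNA 2, ARMC7 was the highest with siRNA 1 (0.19), and SNRNP35 (-0.24) and SNRNP25 (0.11) were the lowest and highest with siRNA 2. Of 12 measured genes for nonsense-mediated decay and the exon junction complex, 0 were 1.5-fold away, with SMG5 (-0.49) and UPF2 (0.28) the extremes with siRNA 1, and MAGOHB (-0.25) and SMG6 (0.17) with siRNA 2. Of 37 measured other regulators, 1 was higher and 1 lower by 1.5-fold with siRNA 1, QKI (0.64) and TAF15 (-0.59). With siRNA 2, 1 was higher, TIA1 (0.60), and 2 were lower, SYNCRIP, a relative of HNRNPR (-0.77), and PTBP3, a relative of PTBP1 named after its value was seen (-0.59).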

How the data were processed

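Gene expression was measured on 3 Affymetrix arrays, 1 per group, grouped by the siRNA and title labels. The deposited table holds linear intensities per probe set, made with GCOS 1.4 per the submitters' processing notes. The background correction, summarisation and normalization are not given in the sources used here. Any scaling before deposit could hide a shift shared by most transcripts. The 3 sorted columns lay within 0.098 of each other on the log2 scale, so none was rescaled.

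Values were raised to a floor, the median of all values (26.0), and put on the log2 scale. A fold against the floor is a lower bound. Symbols came from the platform annotation, with all 263 member probe sets matched to RefSeq by Entrez identifier and 0 symbols updated. Probe sets with several symbols were given no gene. Each gene took its brightest probe set by mean log2 intensity. Counts used 1.5-fold and 2-fold thresholds beside the same share over all measured genes, with no test, since each group held 1 array. Precision is limited by having so few arrays. Genes named were the 12 highest and 12 lowest members with each siRNA, the brightest and most level gene of each class, the 12 with the largest spread between probe sets, the extremes of each list, and the 4 regulators; genes outside this rule are given to complete a class. The members and lists were chosen with earlier results of these data known. Counting and pairing were tested on simulated data. Python 3.11.15, numpy 2.4.6, pandas 2.3.3 and matplotlib 3.10.9 were used.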

Additional observations from a re-analysis of the deposited data

How the results depend on the processing

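The median member differences moved by at most 0.1 under other floors, no floor, quantile normalization, the mean of a gene's probe sets and every probe set by itself. Plain probe sets alone, which are not marked by the maker as able to match several transcripts, left 22 genes. They gave a median of 0.046 with siRNA 1, against -0.11, and 0.20 between the siRNAs, against 0.0038. They also gave 1 gene 1.5-fold away with siRNA 2, against 4, and 3 higher and 3 lower with siRNA 1, against 1 and 7, and 5 higher and 0 lower between the siRNAs, against 4 and 2. No share over all genes read by plain probe sets is given here, so these plain counts have no background to be read against. At 2-fold the member counts were 0 with siRNA 1, 0 with siRNA 2 and 0 between the siRNAs. Every probe set by itself gave 33 with siRNA 1 (12 higher and 21 lower), 28 with siRNA 2 (0 higher and 28 lower) and 31 between the siRNAs (29 higher and 2 lower).

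Pairs of probe sets 1.5-fold apart numbered 18 with siRNA 1 and 24 with siRNA 2. A floor at the 25th percentile gave 30 and 50, at the 75th percentile 8 and 12, and no floor 32 and 67, as more or fewer dim probe sets entered. At 2-fold they were 5 and 3, and 10 between the siRNAs, against 33. Plain probe sets left 3 pairs, of which 0 were apart with siRNA 1, 0 with siRNA 2 and 0 between the siRNAs. Of 159 differences of named genes, all kept their value within 0.1 without a floor and under quantile normalization, while 62 moved by more with the mean of the gene's probe sets. The cause was not tested. No paired analysis was possible because each group held 1 array.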

Other observations

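A further 19 probe sets listed a symbol of the gene set together with other symbols, and so were given no gene. Of these, 18 were measured. Their median difference was -0.057 with siRNA 1, over -0.88 to 0.33, with 1 of them 1.5-fold or more lower and 0 higher. Of all measured single-symbol probe sets, 5.65% were lower and 6.57% higher. The 1 lower probe set (-0.88) carried the symbols BSCL2 and HNRNPUL2-BSCL2, so it may report BSCL2 and not a splicing gene. With siRNA 2 the median was -0.17, over -0.71 to 0.37, with 2 lower and 0 higher, against 5.22% and 3.98%. Between the siRNAs the median was 0.052, with 1 higher and 1 lower by 1.5-fold, against 7.07% and 4.02%. The lower one was the same BSCL2 and HNRNPUL2-BSCL2 probe set (-1.07).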
